A study of Oryza sativa with 9 samples.

Results

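OS06G0210000 is a protein-coding rice gene model that the deposited files describe as a WAT1-related protein. It lies on chromosome 6 from 5614074 to 5616716 on the plus strand, as the files list it, with a model length of 1262 bases. It is 1 of 105692 gene models listed in each library. The gene was chosen from its measured values, because earlier results of these same libraries showed it lower in the line labelled dgk1 and higher in the line labelled OE2 than in wild type. Its own levels and differences are therefore given as a description, with no test. The other 58 models whose description names a WAT1-related or EamA-like protein were taken as its family, a choice that used the descriptions and no measured value.

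WAT1, named after the Arabidopsis mutant walls are thin1, is a membrane protein of the vacuole that exports auxin in Arabidopsis and is needed there for secondary wall thickening in stem fibres. Its relatives in Arabidopsis, the UMAMIT proteins, carry amino acids across membranes and load them into and out of the vascular tissue. They share the EamA fold of membrane-spanning helices with other drug and metabolite transporters. The molecule that OS06G0210000 itself carries is not stated in the labels or files.

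RNA was sequenced from roots of 7-day-old rice seedlings of the cultivar Dongjin, kept in soil with 10 h of light and 14 h of dark at room temperature. The study asks how diacylglycerol kinase 1, which turns the lipid signal diacylglycerol into phosphatidic acid, bears on root architecture. The 9 libraries form 3 groups of 3, all in that cultivar: wild type (WT), dgk1, labelled as a knockout and called dgk1-1 in the design text, and OE2, labelled as an overexpressor of the kinase. Within a group, the 3 libraries are biological repetitions according to the design text. Each transgenic or mutant group is 1 line, and the kind of mutation, the promoter of the overexpressor and the number of plants per library are not stated in the labels.

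The libraries held 8908397 to 12459460 fragments. Levels are given in FPKM, a unit inferred from the values, which counts fragments per kilobase of a model's length and corrects for sequencing depth. The annotated diacylglycerol kinase model taken as the target, OS04G0634700, was listed at 0 in all 9 libraries. A model without an identifier at the same place, numbered 25546, had 0.896, 0.738 and 0.487 FPKM in WT, 7.24, 5.6 and 9.16 FPKM in dgk1, and 0.521, 0.625 and 0.571 FPKM in OE2. These levels go against both labels, so dgk1 and OE2 below mean the libraries labelled so, and no direction drawn from them is a direction of kinase activity.

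The level of OS06G0210000 was lowest in dgk1, intermediate in WT and highest in OE2. The 3 WT libraries had 14.2, 11.5 and 15.4 FPKM. The 3 dgk1 libraries had 7.03, 5.81 and 6.26 FPKM. The 3 OE2 libraries had 39.1, 30.9 and 46.0 FPKM. Every dgk1 library lay below every WT library and every OE2 library above every WT library, so the groups did not overlap. The gap on the low side ran from 7.03 to 11.5 FPKM and that on the high side from 15.4 to 30.9 FPKM. Since whole roots were sequenced, fewer cells that express the gene and less of its RNA per cell cannot be told apart.

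The mean level was 13.7 ± 1.97 FPKM in WT (SD, n = 3), 6.37 ± 0.615 FPKM in dgk1 and 38.7 ± 7.58 FPKM in OE2. As ratios of means, WT was 2.15 times dgk1, OE2 was 2.82 times WT and OE2 was 6.08 times dgk1. On the log2(FPKM + 1) scale dgk1 differed from WT by -0.99, OE2 from WT by 1.42 and OE2 from dgk1 by 2.41, each with a standard error of 0.17 from a fit over all models. The difference of OE2 from WT was thus the wider of those from WT, on a scale that understates changes of low levels. In proportion to the mean, the spread between libraries was 14.4% in WT, 9.66% in dgk1 and 19.6% in OE2.

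The values rested on 581 fragments over the 3 WT libraries, 293 over the 3 dgk1 libraries and 1395 over the 3 OE2 libraries. In the dgk1 library with the lowest level, replicate 2, 81 fragments gave 5.81 FPKM with an exact 95% Poisson interval of 4.62 to 7.23 FPKM, which covers counting error only. In the lowest WT library, also replicate 2, 154 fragments gave an interval of 9.79 to 13.5 FPKM. In the lowest OE2 library, again replicate 2, 360 fragments gave an interval of 27.8 to 34.3 FPKM. None of these intervals reached those of the nearest library of another group, 5.80 to 8.44 FPKM for dgk1 replicate 1 and 13.6 to 17.3 FPKM for WT replicate 3. Since the gene was chosen for differences between these groups, such a separation could be foreseen and is no test of them. The pooled within-group SD of OS06G0210000 on the log2(FPKM + 1) scale was 0.211, close to the median of 0.207 over the 4364 tested models with a level within 2-fold of its own.

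**Figure D1:**
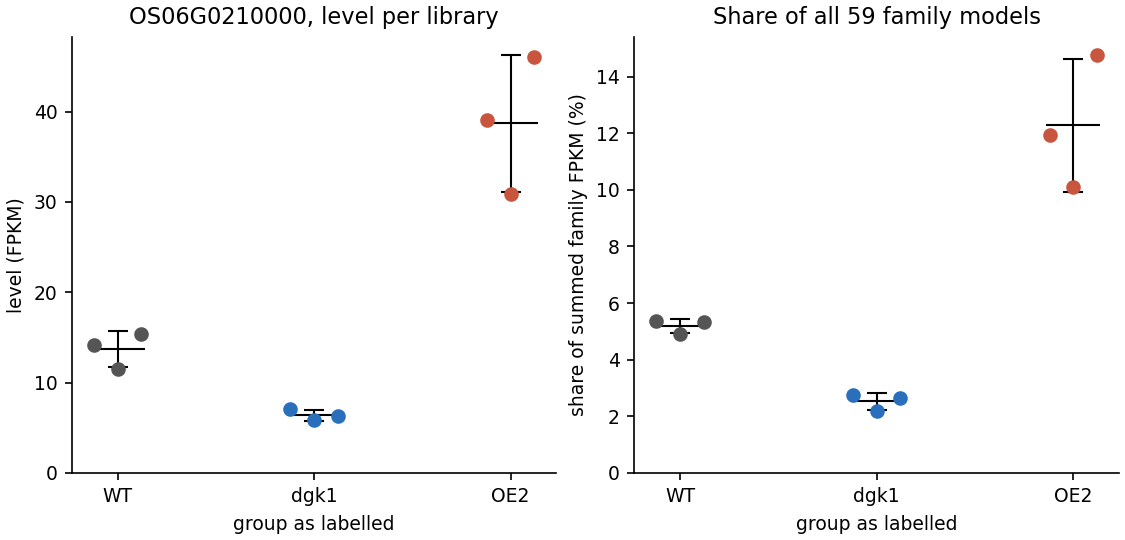
Level of OS06G0210000 in FPKM (left) and its share of the summed FPKM of all 59 family models in percent (right), with 1 point per library and the mean and SD of each group of 3 drawn in black. The WT points sit between 11.5 and 15.4 FPKM, the dgk1 points at or below 7.03 FPKM and the OE2 points at or above 30.9 FPKM, and the shares have the same order.

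Among the tested models of a library, OS06G0210000 stood at percentiles 71.1, 68.0 and 73.0 in WT. In dgk1 it stood at percentiles 58.1, 54.2 and 55.9, and in OE2 at 84.4, 81.5 and 86.0. It was therefore a gene of middling level in dgk1 and among the higher ones in OE2. The only other model that overlaps its span is a noncoding model of 37 bases on the same strand, listed at 0 in all 9 libraries.

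Marker genes were read to see which tissues the libraries held. Of 40 models described as chlorophyll-binding, photosystem or small Rubisco subunit proteins, 8 were listed at 0 everywhere and 19 were tested. Their summed level was 230 to 348 FPKM in WT, 165 to 218 FPKM in dgk1 and 237 to 339 FPKM in OE2, so RNA of green-tissue genes was present in the root libraries. Much of the sum was OS09G0346500, a chlorophyll a-b binding protein gene. Without it, a choice made after its values were seen, the sum was 128 to 225 FPKM in WT, 98.7 to 131 FPKM in dgk1 and 98.9 to 138 FPKM in OE2, so that both lines were at similar levels. All 19 had a difference below 0 for dgk1 against WT, with a median log2 difference of -0.42, but limma and voom called 0. At an unadjusted p under 0.05 there were 4, beside 11.1% of all tested models. Some were higher in WT replicate 3 than in any other library, which bears on both comparisons with WT. OS03G0592500 had 3.72, 3.07 and 17.4 FPKM in WT, and OS12G0291100 had 1.10, 1.41 and 12.3 FPKM. Others were not, such as OS09G0346500 with 102, 130 and 123 FPKM in WT. For OE2 against WT 4 of the 19 were above 0 and 15 below, with a median of -0.35, and limma and voom called 0. At an unadjusted p under 0.05 there were 5, beside 20.6% of all tested models. Of 7 root models, 1 was at 0 everywhere, Casparian strip membrane protein 4, and the summed level was 9.76 to 28.5 FPKM in WT, 14.2 to 22.8 FPKM in dgk1 and 17.0 to 24.8 FPKM in OE2. The part of these tissues in the level of OS06G0210000 was not tested.

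The family of OS06G0210000 was mostly silent or low in these roots. With the gene itself it has 59 models, 46 described as WAT1-related and 13 as EamA-like. Of the 58 others, 17 were listed at 0 in all libraries and 22 were above 0 without passing the filter on low levels, which asks for at least 1 FPKM in at least 3 libraries. The remaining 19 were tested, 7 of them had a mean over all libraries of at least 5 FPKM and 3 a mean of at least 10 FPKM. By mean level over the 3 libraries, OS06G0210000 ranked 4th of the 59 in WT, 7th in dgk1 and 2nd in OE2.

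The share of OS06G0210000 in the summed FPKM of its family moved with its level. It made up 5.36%, 4.91% and 5.32% of the family sum in the WT libraries, 2.76%, 2.18% and 2.65% in dgk1, and 11.9%, 10.1% and 14.8% in OE2. The mean share was 5.20 ± 0.253% in WT, 2.53 ± 0.306% in dgk1 and 12.3 ± 2.35% in OE2. The family sum itself was 263 ± 27.0 FPKM in WT, 252 ± 15.3 FPKM in dgk1 and 315 ± 11.2 FPKM in OE2. The largest part of that sum was OS02G0768300, a WAT1-related model on chromosome 2, in every group.

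Tested across all 22383 models that passed the filter, 0 of the 19 other family models differed between dgk1 and WT in the limma fit, where 0.675% of all tested models were called at a Benjamini-Hochberg adjusted p of 0.05. At an unadjusted p under 0.05 there were 2 of 19, against 11.1% of all, and voom on the recovered fragments called 1. For OE2 against WT 1 of 19 was called, and it was higher, against 6.96% of all tested models (3.71% higher and 3.24% lower). At an unadjusted p under 0.05 there were 7 of 19, against 20.6% of all. Voom called 2, and the count was also 2 when OE2 replicate 2 was left out. For OE2 against dgk1 2 of 19 were called, both higher, against 6.36% of all tested models and 3.2% called higher. Leaving out 1 library gave 1 to 3. The median log2 difference of the 19 was -0.18 for dgk1 against WT, with 4 above 0 and 15 below, beside -0.01 for all tested models. It was -0.11 for OE2 against WT, with 7 above 0 and 12 below, beside 0.01 for all. It was 0.08 for OE2 against dgk1 beside 0.00 for all. Both comparisons with WT share the WT libraries, so their values are set side by side and not related to each other.

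**Figure D2:**
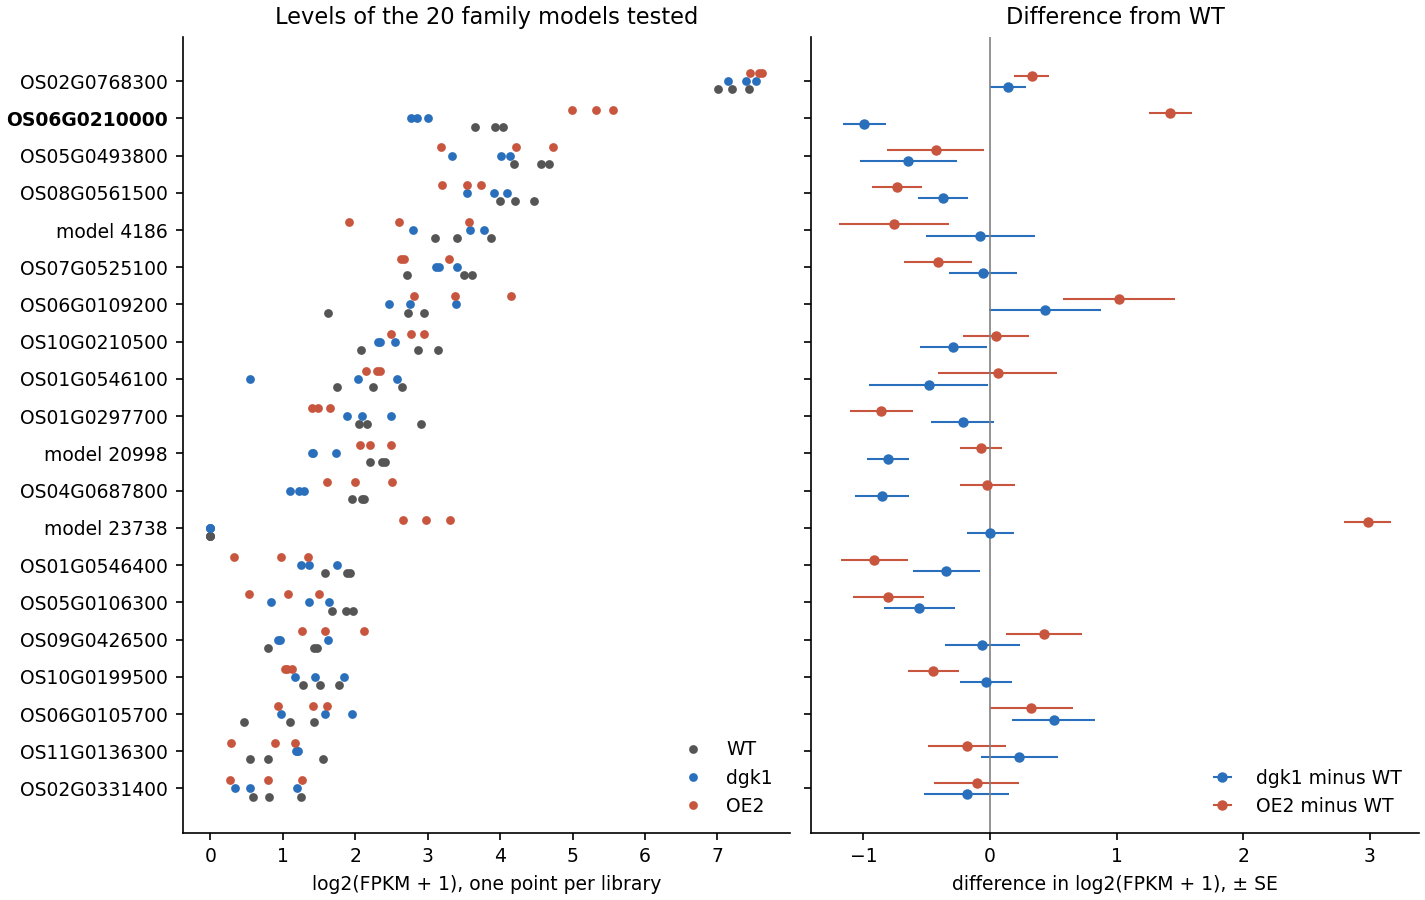
Levels of the 20 tested family models in log2(FPKM + 1), 1 point per library (left), and differences of dgk1 and OE2 from WT with their standard errors (right), ordered by mean level. OS06G0210000, in bold, lies at -0.99 in dgk1 and 1.42 in OE2, and model 23738 has points above 0 in OE2 alone.

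The EamA-like model 23738 had fragments in OE2 alone. It spans 20882277 to 20890933 on the minus strand of chromosome 4. The WAT1-related model OS04G0422300 covers only part of that span, 20882277 to 20885593, and was listed at 0 in all 9 libraries. Model 23738 was at 0 in each of the 6 libraries of WT and dgk1, and had 8.94, 6.85 and 5.33 FPKM in OE2, 901 fragments in all. It was called in limma with an adjusted p of 1.48e-05 against WT and 1.41e-05 against dgk1, and both calls were kept under all alternatives run. No fold is given, since the other groups were listed at 0.

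The EamA-like model 20998 on chromosome 3 (28470466 to 28473643) was the other model called. It had 4.16, 4.33 and 3.59 FPKM in WT, 1.67, 2.33 and 1.65 FPKM in dgk1, and 3.18, 3.62 and 4.66 FPKM in OE2. All 3 dgk1 libraries lay below the others, while WT and OE2 overlapped. OE2 exceeded dgk1 by 0.74 ± 0.16 on the log2 scale, with a limma adjusted p of 0.0319. The call was lost without dgk1 replicate 1, dgk1 replicate 3, OE2 replicate 2 or OE2 replicate 3, where the adjusted p was 0.0721 to 0.117. Counting all 16 alternatives run for it, the call was lost in 7. The difference of dgk1 from WT was -0.81 ± 0.16 with a limma adjusted p of 0.0933, and 0.0357 with voom.

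The WAT1-related model OS04G0687800 on chromosome 4 (35167839 to 35170996) also had its lowest values in dgk1. It had 2.88, 3.35 and 3.28 FPKM in WT, 1.45, 1.34 and 1.14 FPKM in dgk1, and 2.05, 3.0 and 4.67 FPKM in OE2. The 3 dgk1 libraries did not overlap with the others, but neither -0.85 against WT (limma adjusted p = 0.181) nor 0.83 for OE2 against dgk1 (0.0631) passed the threshold. The latter was past it in 3 alternatives, with an adjusted p of 0.0477 with pseudocount 0.1, 0.0385 with voom and 0.0193 without OE2 replicate 1, and its adjusted p over the alternatives reached 0.188. Its pattern over the 9 libraries and that of models 20998 and 23738 were the most like that of OS06G0210000 within the family, with a Pearson r of 0.71, 0.70 and 0.89 on log2(FPKM + 1). These r values describe 9 libraries in 3 groups and carry no test.

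The most abundant family models did not pass the threshold in any comparison. OS02G0768300 (chromosome 2, 32359193 to 32361902) had 146, 128 and 172 FPKM in WT, 167, 185 and 140 FPKM in dgk1, and 196, 173 and 190 FPKM in OE2. The 3 OE2 libraries were all above 172 FPKM, a level that WT replicate 3 and dgk1 replicate 2 also reached. The limma adjusted p for OE2 against WT was 0.226. OS05G0493800, WAT1-related on chromosome 5, had 24.5, 17.2 and 22.6 FPKM in WT, 16.6, 9.10 and 15.2 FPKM in dgk1, and 17.7, 25.6 and 8.06 FPKM in OE2, so that its OE2 libraries covered the range of both other groups.

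OS08G0561500, WAT1-related on chromosome 8, stood lower in OE2, in the opposite direction to OS06G0210000. It had 17.5, 21.1 and 15.0 FPKM in WT, 10.7, 14.1 and 16.2 FPKM in dgk1, and 8.19, 10.6 and 12.3 FPKM in OE2. The WT and OE2 libraries did not overlap, but the difference of -0.74 ± 0.20 missed the threshold (limma adjusted p = 0.0692), and was past it with voom and when libraries were scaled to equal total fragments. Model 4186, EamA-like on chromosome 1, ran from 2.77 to 10.9 FPKM within OE2 alone. OS07G0525100 had means of 9.07 ± 3.05 FPKM in WT, 8.40 ± 1.07 FPKM in dgk1 and 6.48 ± 2.05 FPKM in OE2, and its groups overlapped.

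OS06G0109200 is the most abundant other family model on chromosome 6 (543057 to 545777). It had 2.07, 6.71 and 5.63 FPKM in WT, 5.74, 9.45 and 4.54 FPKM in dgk1, and 16.7, 6.03 and 9.42 FPKM in OE2. Its OE2 libraries overlapped with both other groups, and 1.02 ± 0.44 for OE2 against WT did not pass the threshold (limma adjusted p = 0.241). The least like OS06G0210000 in pattern were OS10G0199500, OS01G0297700 and OS01G0546400, with r of -0.68, -0.61 and -0.55. OS01G0297700 had 4.38 ± 1.84 FPKM in WT, 3.53 ± 0.980 FPKM in dgk1 and 1.87 ± 0.254 FPKM in OE2. OS01G0546400 had 2.50 ± 0.445, 1.77 ± 0.530 and 0.927 ± 0.647 FPKM, and OS10G0199500 had 1.90 ± 0.506, 1.86 ± 0.683 and 1.11 ± 0.0745 FPKM in WT, dgk1 and OE2. Of these, OS01G0546400 alone came past the threshold in a fit without 1 library, at an adjusted p of 0.0445 for OE2 against WT without OE2 replicate 2. Over the 19, r ran from -0.68 to 0.89 with a median of 0.02 and 10 above 0, and the median over all tested models was 0.00.

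Many family models lie near another, but OS06G0210000 does not. Of the 59 models, 38 have another family model within 100 kb, and 32 have 1 there that does not overlap them. Chromosome 6 holds 7 other family models, and the nearest is 5.06 Mb from OS06G0210000. There are 10 overlapping pairs of family models, in 7 of which at least 1 member was listed at 0 in all libraries. Values within such pairs are uncertain, as is any split of reads between near-identical family members.

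Neither of the 2 tested genes that follow OS06G0210000 nor the nearest 1 before it was called in any comparison. OS06G0210100, which starts 2.4 kb beyond its end and has no described function, had 114, 134 and 135 FPKM in WT, 119, 128 and 131 FPKM in dgk1, and 131, 126 and 127 FPKM in OE2. Its log2 difference was -0.02 for dgk1 and 0.00 for OE2 against WT, and all 3 groups overlapped. OS06G0210200, an aminoacylase, which frees amino acids from their acylated forms, had 45.0, 40.3 and 41.7 FPKM in WT, 43.2, 35.9 and 40.7 FPKM in dgk1, and 40.6, 40.5 and 37.9 FPKM in OE2. Its groups overlapped as well. On the other side, the nearest tested model was OS06G0209500 at 19.3 kb, with 23.4 ± 2.40 FPKM in WT, 18.1 ± 4.42 FPKM in dgk1 and 17.1 ± 2.68 FPKM in OE2.

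Of the 10 nearest tested models, 5 on each side, 2 were called in OE2 against WT. In that comparison 6.96% of all tested models and 12.9% of those on chromosome 6 were called. OS06G0210900, described as lipase class 3-like (5657850 to 5661263, 41.1 kb beyond OS06G0210000), fell in OE2. It had 120, 77.0 and 89.1 FPKM in WT, 125, 139 and 141 FPKM in dgk1, and 42.0, 53.3 and 51.2 FPKM in OE2. Its order over the groups was the reverse of that of OS06G0210000, with all OE2 libraries lowest and all dgk1 libraries highest. The difference was -0.94 ± 0.17 for OE2 against WT (limma adjusted p = 0.0103) and -1.45 for OE2 against dgk1 (0.000771), both kept under all alternatives run. For dgk1 against WT it was 0.52 with an adjusted p of 0.297.

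OS06G0208700, without a described function and 55.0 kb before OS06G0210000, rose in OE2 from a low level. It had 3.62, 3.52 and 3.84 FPKM in WT, 4.25, 4.89 and 4.14 FPKM in dgk1, and 5.81, 5.30 and 7.78 FPKM in OE2. OE2 exceeded WT by 0.63 ± 0.15 on the log2 scale with a limma adjusted p of 0.0399. That call was lost in 8 of the 9 fits that left out 1 library, all but the 1 without OE2 replicate 2, with an adjusted p of 0.0589 to 0.106 in those 8. Counting all 17 alternatives, it was lost in 14. The remaining nearest models, OS06G0209400, OS06G0210400, OS06G0210500 and models 30158 and 30155, were called in no comparison.

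Within 250 kb on either side lie 184 models, of which 37 besides the gene were tested. In dgk1 against WT 1 of the 37 was called, which is 2.70%, beside 0.821% over chromosome 6. In OE2 against WT 3 were called, or 8.11%, beside 6.96% of all tested models and, on chromosome 6 as a whole, 236 of 1828, or 12.9%. In OE2 against dgk1 2 were called, or 5.41%, beside 6.36% of all tested models and 10.8% over chromosome 6. In that comparison 4 were called when WT replicate 1 was left out, and voom called 5, or 13.5%, beside 12.2% over chromosome 6. All of these shares rest on 1 to 5 models.

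The model called in dgk1 was OS06G0207950, of no described function and 123.5 kb away, which rose. It had 11.1, 13.1 and 8.65 FPKM in WT, 29.2, 37.6 and 27.7 FPKM in dgk1, and 16.9, 14.4 and 15.7 FPKM in OE2. Its dgk1 libraries did not overlap with the others, and the difference from WT was 1.45 ± 0.17 (limma adjusted p = 0.00779). The further model called in OE2 was OS06G0211200, the transcription factor bZIP 46, which acts in abscisic acid signalling and drought responses of rice. It fell from 9.98 ± 0.129 FPKM in WT to 5.25 ± 0.124 FPKM in OE2, by 0.81 on the log2 scale (limma adjusted p = 0.00778). In dgk1 it had 6.40, 5.69 and 8.35 FPKM, also below every WT library, but dgk1 was not called against WT.

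**Figure D3:**
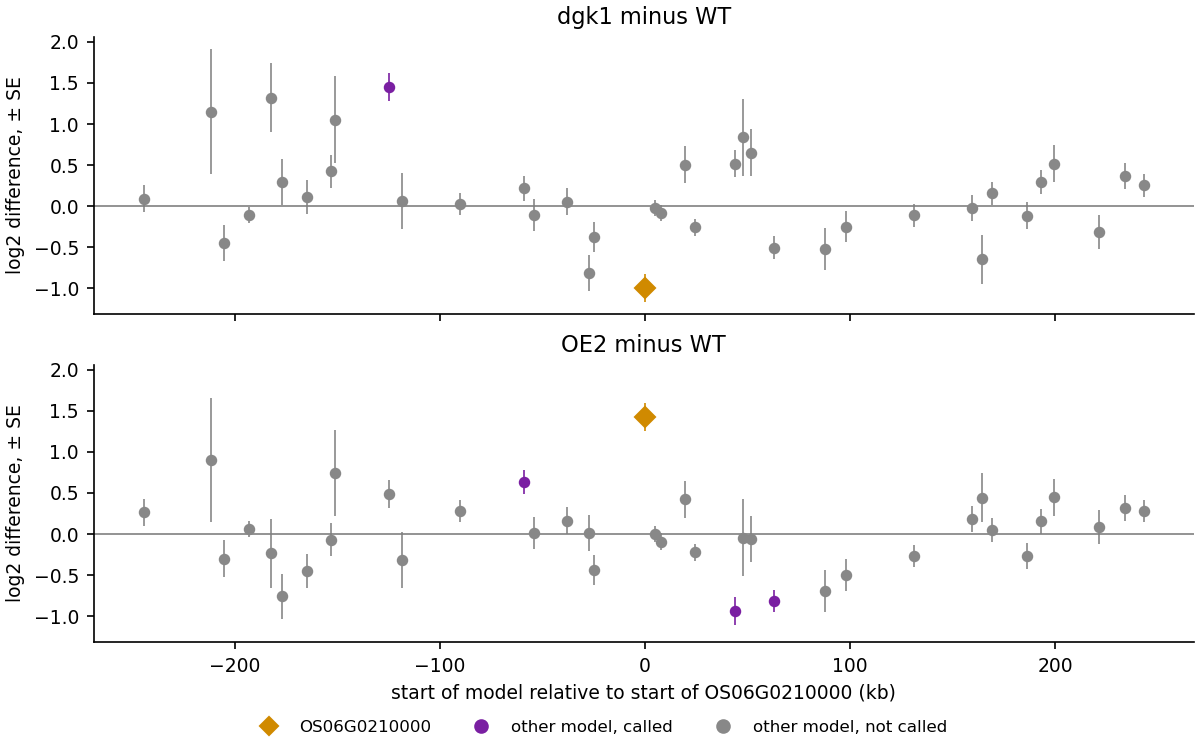
Differences of dgk1 (top) and OE2 (bottom) from WT in log2(FPKM + 1), with standard errors, for OS06G0210000 and the 37 other tested models within 250 kb, against the distance of their start from its start in kb. The gene lies at -0.99 and 1.42, and the 2 models that follow it most closely lie close to 0 in both lines; 1 other model was called in dgk1 and 3 in OE2.

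Other transport and wall genes were counted in lists. These were made from the descriptions, for amino acid transport and auxin transport, the known cargoes of the Arabidopsis relatives, for other transporters of the drug and metabolite superfamily, and for secondary walls and nodulin-like proteins. Of 52 amino acid transport models 11 were tested, with 1 called in dgk1 against WT, 1 in OE2 against WT and 2 in OE2 against dgk1. These are 9.09%, 9.09% and 18.2% of the list, beside 0.675%, 6.96% and 6.36% of all tested models, but rest on 1 or 2 models. Their median log2 difference was 0.06 in dgk1 and 0.17 in OE2 against WT, beside -0.01 and 0.01 over all tested models.

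The amino acid permease model 24764 on chromosome 4 was highest in dgk1, at low levels throughout. It had 0.423, 0.175 and 0.176 FPKM in WT, 3.02, 1.84 and 2.03 FPKM in dgk1, and 0.0630, 0.200 and 0 FPKM in OE2. The difference of dgk1 from WT was 1.38 ± 0.21 (limma adjusted p = 0.0270). It was lost without WT replicate 2, WT replicate 3 or any of the 3 dgk1 replicates, at adjusted p values of 0.0813 to 0.117. Pseudocount 0.1, the 6 libraries of the comparison and the replicate block also lost it, so that 8 of 16 alternatives did. OE2 against dgk1 was at -1.59 with an adjusted p of 0.00179 and was kept in each of the 9 fits without 1 library.

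Of the abundant amino acid permeases, 1 was called higher in OE2 than in WT and 1 higher in OE2 than in dgk1. OS12G0623500 had 400, 465 and 339 FPKM in WT, 394, 421 and 402 FPKM in dgk1, and 532, 560 and 558 FPKM in OE2. The OE2 libraries were above all others, with 0.47 ± 0.12 against WT (limma adjusted p = 0.0486), a call lost in 8 of the 9 fits without 1 library, all but the 1 without WT replicate 2, at 0.0783 to 0.145. Counting all 17 alternatives, this call was lost in 12. OS03G0576900 had 109, 153 and 136 FPKM in WT, 102, 135 and 83.0 FPKM in dgk1, and 206, 165 and 194 FPKM in OE2. It was called in OE2 against dgk1 with 0.84 ± 0.20 (limma adjusted p = 0.0402). That call was lost without WT replicate 3, dgk1 replicate 1 or 3, or any of the OE2 replicates, at 0.0597 to 0.139. With equal totals or equal upper quartiles it was lost as well, and in 11 of 17 alternatives in all.

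Of 13 auxin transport models 7 were tested, and 1 was called, in OE2 against WT, where 6.96% of all tested models were called. This was OS06G0232300, a probable auxin efflux carrier component 1c of the PIN family, which moves auxin out of cells, on chromosome 6 (6866393 to 6869521). It had 9.76, 8.31 and 10.7 FPKM in WT, 7.69, 6.64 and 8.58 FPKM in dgk1, and 4.81, 5.05 and 5.36 FPKM in OE2, so it was lowest in OE2 without overlap. The difference from WT was -0.80 ± 0.14 (limma adjusted p = 0.00787), kept under all alternatives run. In dgk1 against WT limma and voom called 0 of the 7, with 0 at an unadjusted p under 0.05, beside 11.1% of all tested models. In OE2 against dgk1 limma and voom called 0, with 1 at an unadjusted p under 0.05, beside 18.7% of all. Of 23 other transporters of the superfamily, the sugar-phosphate, nucleotide-sugar and purine carriers, 5 were tested. Limma and voom called 0 in each comparison, and 1 had an unadjusted p under 0.05 in each. Of all tested models 11.1% had such a p in dgk1 against WT, 20.6% in OE2 against WT and 18.7% in OE2 against dgk1.

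Of 105 secondary wall models, named for cellulose synthase A, laccase, COBRA, fasciclin or dirigent proteins, 61 were tested. In dgk1 against WT 1 was called, higher, where 0.532% of all tested models were called higher. This was the laccase OS01G0850800, named here after its values were seen, with 2.0, 1.08 and 0.818 FPKM in WT, 5.09, 6.75 and 5.42 FPKM in dgk1, and 3.2, 5.14 and 3.47 FPKM in OE2, at 1.58 ± 0.23 (limma adjusted p = 0.0214). Its call was lost without WT replicate 2 or 3, any of the dgk1 replicates or OE2 replicate 3, at 0.0504 to 0.0968, and in 8 of 17 alternatives in all. Without WT replicate 1 the list had 2 calls. In OE2 against WT 7 were called higher and 2 lower, 14.8% of the list beside 6.96% of all tested models (3.71% higher and 3.24% lower), and leaving out 1 library gave 5 to 11. Most of them lie on 2 chromosomes: OS11G0214400, OS11G0641500 and OS11G0645400 on chromosome 11, and model 11195, OS12G0258700 and OS12G0257600 on chromosome 12. Whether the share belongs to wall genes or to these chromosomes was not tested. The median log2 difference of the 61 was 0.04 for OE2 against WT, beside 0.01 over all tested models. In OE2 against dgk1 1 was called higher and 2 lower, 4.92% of the list beside 6.36% of all tested models. Dirigent proteins, which steer the coupling of lignin precursors, were called in both directions. OS11G0214400 was at 0 in each library of WT and dgk1, and had 9.90, 3.74 and 6.04 FPKM in OE2, while the dirigent-like model 11195 had 5.69, 3.15 and 5.36 FPKM in WT, 4.68, 4.97 and 3.10 FPKM in dgk1 and was listed at 0 in all OE2 libraries.

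The laccase OS12G0258700, of an enzyme family that oxidises lignin precursors, rose in OE2. It had 5.80, 5.63 and 5.26 FPKM in WT, 13.2, 20.8 and 8.87 FPKM in dgk1, and 19.7, 50.3 and 31.4 FPKM in OE2. Both lines lay above WT, with OE2 called at 2.31 ± 0.36 (limma adjusted p = 0.00489) and dgk1 not called at 1.14 ± 0.36 (0.285). The laccase OS12G0257600, named here after its values were seen, went the other way in OE2. It was the only laccase called lower there than in WT, while OS12G0258700, OS01G0850800 and OS11G0641500 were called higher. It had 3.19, 3.28 and 3.50 FPKM in WT, 3.42, 4.20 and 2.36 FPKM in dgk1, and 0.250, 0.0529 and 0 FPKM in OE2. Its limma adjusted p for OE2 against WT was 0.000184. The dirigent-like model 6171 was called in OE2 against WT at 2.03 ± 0.44 (limma adjusted p = 0.0269), from 2.32, 1.38 and 0.483 FPKM in WT to 10.0, 7.05 and 8.02 FPKM in OE2. That call was lost without WT replicate 2 or 3 or any of the OE2 replicates, at 0.0604 to 0.0935, and also without the filter.

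Of 22 nodulin-like models, a name some WAT1 relatives also carry, 11 were tested. In dgk1 against WT limma called 0, with 4 at an unadjusted p under 0.05, which 11.1% of all tested models had, and 1 called by voom, and 10 of the 11 were below 0. In each comparison with OE2 the same model, OS07G0142500, was called, 9.09% of the list beside 6.96% of all tested models against WT and 6.36% against dgk1. This gene, described as like an early nodulin, had 6.97, 1.88 and 3.02 FPKM in WT, 4.05, 4.15 and 5.49 FPKM in dgk1, and 16.9, 11.4 and 16.5 FPKM in OE2. OE2 exceeded WT by 1.8 ± 0.35 (limma adjusted p = 0.0153), a call lost without WT replicate 3, OE2 replicate 1 or OE2 replicate 3, at 0.0616 to 0.0646. OE2 exceeded dgk1 by 1.51 ± 0.35 (0.0370), a call lost in 7 of the 9 fits without 1 library, all but those without WT replicate 1 or 2, at 0.0531 to 0.129. It was also lost with pseudocount 0.1 and without the filter.

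The genes whose pattern was most like that of OS06G0210000 over the 9 libraries were sought among 4185 tested models that averaged 5 FPKM or more and a described function. Being chosen by their values, they are described with no test. The closest was OS03G0170900 on chromosome 3, the sucrose transporter SUT1, which takes up sucrose across the plasma membrane, with r = 0.98. It had 26.5, 27.2 and 38.7 FPKM in WT, 21.3, 20.4 and 16.7 FPKM in dgk1, and 59.5, 55.3 and 79.2 FPKM in OE2. As with OS06G0210000, replicate 3 was the highest and replicate 2 the lowest of the OE2 libraries. The r of the deviations from the group means was 0.72, and leaving out any 1 library left the r over libraries at 0.97 or more.

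Next in order was OS05G0533500, serine acetyltransferase 5, which makes the precursor of cysteine, with r = 0.96 and 16.8, 17.3 and 18.3 FPKM in WT, 15.9, 13.2 and 13.7 FPKM in dgk1, and 23.4, 25.6 and 23.6 FPKM in OE2. OS04G0165700, a cyanoalanine and cysteine synthase that detoxifies cyanide, had r = 0.95 and 216, 237 and 240 FPKM in WT, 209, 199 and 214 FPKM in dgk1, and 462, 381 and 437 FPKM in OE2. OS07G0689600, nicotianamine synthase 3, which makes a chelator of iron and zinc, had r = 0.95 and 6.23, 4.95 and 8.79 FPKM in WT, 5.31, 2.82 and 3.36 FPKM in dgk1, and 12, 11.4 and 12.6 FPKM in OE2. In these 3 genes all OE2 libraries were highest, whereas in OS04G0165700 and OS05G0533500 the dgk1 libraries lay only slightly below WT and in OS07G0689600 they overlapped with it.

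The others of the 8 most alike were the zinc knuckle model 9556 and the transcription elongation model 35039, both ahead of OS07G0689600 in r, and the esterase OS12G0256000 and the cyclin-dependent kinase OS06G0334400, with r of 0.94 to 0.96. Model 35039 had 1.61, 1.48 and 2.13 FPKM in WT, 0.607, 0.707 and 1.13 FPKM in dgk1, and 19.0, 13.9 and 14.4 FPKM in OE2. Within groups the r of these 8 ran from -0.31 for model 9556 to 0.72 for SUT1, so most of the likeness was between group means. Over all tested models 17 had an r above 0.95 and 23 an r below -0.95.

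The least alike in pattern was the helicase model 38944, with r = -0.96 and 9.20, 7.48 and 7.15 FPKM in WT, 10.5, 9.65 and 11.2 FPKM in dgk1, and 2.99, 3.55 and 2.82 FPKM in OE2. The aldo/keto reductase model 23324 followed with r = -0.96, from 4.91 to 6.27 FPKM in WT, 9.66 to 12.3 FPKM in dgk1 and 2.94 to 3.40 FPKM in OE2. Next came the neighbouring lipase OS06G0210900 with r = -0.94, the oxidoreductase OS12G0227400 with r = -0.93 and model 38942 of the Mpv17 family with r = -0.92. All 5 were lowest in OE2, without overlap with WT.

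**Figure D4:**
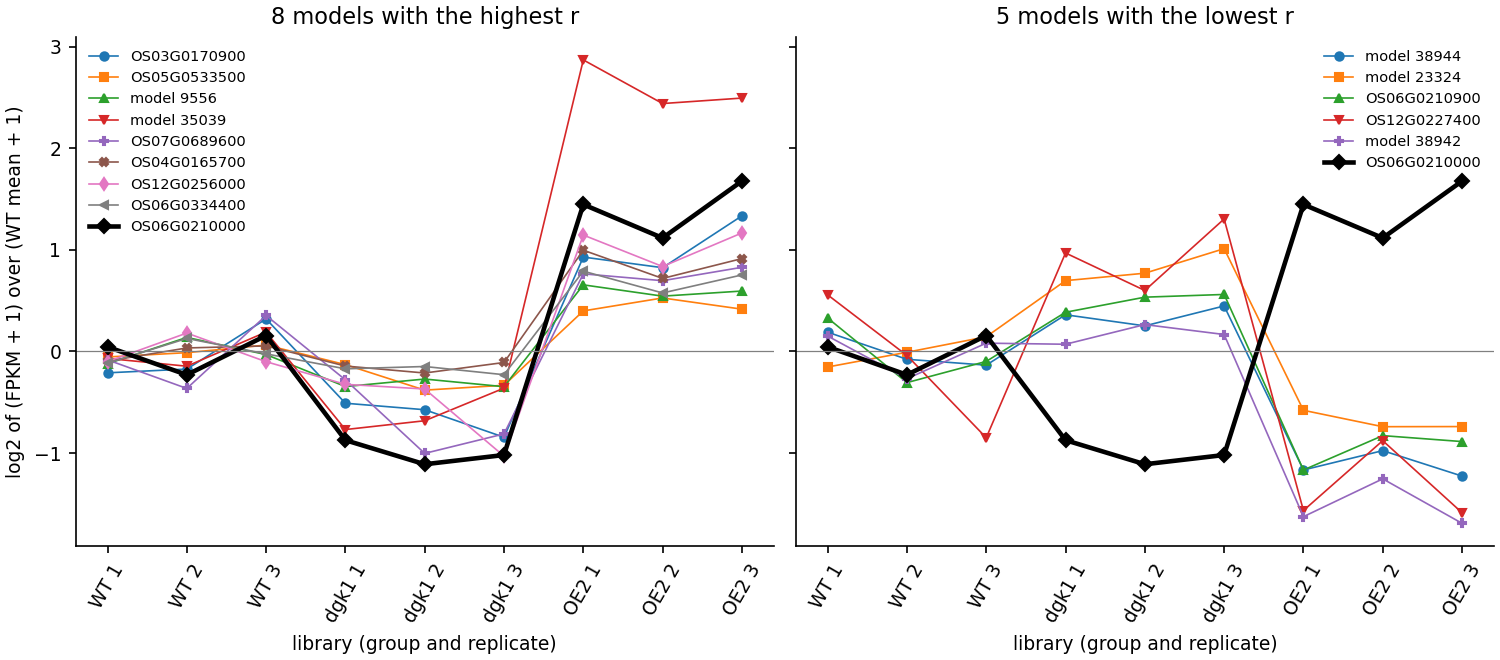
Level of the 8 models most like (left) and the 5 least like (right) OS06G0210000 in pattern, as log2 of FPKM + 1 over the WT mean + 1, in each of the 9 libraries, with OS06G0210000 in black; lines only join points of 1 model. The models on the left are above 0 in all OE2 libraries, and those on the right below 0 there.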

How the data were processed

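RNA-seq libraries of 9 rice root samples were used, 3 per group as labelled. CASAVA 1.8 and HISAT2 are named, per the submitters' processing notes; the counter, its strand setting, the genome build and the gene annotation are not named in the sources used here. Per sample, the deposited values were taken as FPKM because each value, multiplied by the model's length, is a whole multiple of a fixed step per library (100% of them, allowing a deviation of 0.01 steps). The planned count test was not used, because the files hold length-scaled values and no counts. Fragments recovered from these steps gave the depth and the Poisson intervals.

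Models that reached 1 FPKM in 3 or more of the 9 libraries (22383 of 105692) were fitted with limma 3.58.1 (R 4.3.3, statmod 1.5.0) on log2(FPKM + 1), with trend and robust variance, all 9 libraries in 1 fit and group as the only term. Calls are two-sided, with Benjamini-Hochberg adjustment over all tested models and a threshold of 0.05. Means are ± SD (n = 3) and log2 differences ± SE. The members, the lists and the named-gene rule were chosen with earlier results of these data known. Named were OS06G0210000; the family models that were called, the 6 most abundant, and the 3 most and 3 least alike in pattern; the 5 nearest tested models on each side and those called within 250 kb; up to 4 called members of each list; and the 8 most and 5 least alike models by Pearson r over libraries and 5 by r within groups. The script was tested on simulated data. Alternatives were pseudocount 0.1, no filter, a filter of 5 FPKM, scaling to equal totals or equal upper quartiles, the 6 libraries of a comparison, the replicate number as a block, voom on recovered fragments, and each library left out in turn. No protein or promoter sequence of the gene was matched in the reference table used here.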

Additional observations from a re-analysis of the deposited data

How the results depend on the processing

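Under all 17 alternatives the log2 difference of OS06G0210000 was -1.10 to -0.91 for dgk1 against WT, 1.29 to 1.57 for OE2 against WT and 2.28 to 2.58 for OE2 against dgk1. The gene was chosen from these same values, so its order and direction could hardly change, and the ranges only describe the effect of processing. No named difference that was called reversed, but many calls were lost. Over 47 named models, 1 of 4 calls in dgk1 against WT was kept in all alternatives. In OE2 against WT 15 of 26 were kept, and in OE2 against dgk1 19 of 22. The count of other family models called in dgk1 against WT was 0, and 1 with voom. In OE2 against WT it was 1, but 2 with equal total fragments or voom, and 1 to 2 when leaving out 1 library. In OE2 against dgk1 it was 2, but 1 without the filter, with a filter of 5 FPKM, with 6 libraries or with the replicate block, and 1 to 3 when leaving out 1 library. Of the 37 models within 250 kb, 2 were called in OE2 against dgk1, but 4 with 6 libraries, 5 with voom and 2 to 4 when leaving out 1 library. Over the 5 lists, calls in dgk1 against WT were 2, but 1 with pseudocount 0.1 or 6 libraries, 0 with a filter of 5 FPKM or the replicate block, 5 with voom and 0 to 3 when leaving out 1 library. In OE2 against WT they were 12, but 6 with a filter of 5 FPKM and 6 to 13 when leaving out 1 library (7 without WT replicate 3, 6 without OE2 replicate 3). In OE2 against dgk1 they were 6, but 2 with a filter of 5 FPKM, 9 with voom and 4 to 7 when leaving out 1 library. Over all models, calls in dgk1 against WT went from 151 to 77 with a filter of 5 FPKM, 73 with the replicate block, 246 with voom and 80 to 142 when leaving out 1 library. Those in OE2 against WT went from 1557 to 794 and in OE2 against dgk1 from 1423 to 706 with a filter of 5 FPKM, which tests fewer models. Apart from that the cause was not tested. The deviations of same-numbered libraries from their group means had r of -0.161 to 0.0635 over the 9 such pairs, beside -0.167 to 0.204 over the 18 other pairs. Deviations from a mean of 3 libraries are tied to each other, so these r cannot show whether same-numbered libraries share a batch. Low family models, under a few FPKM, are limited by depth.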

Other observations

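Model 23738, the EamA-like family model with fragments in OE2 alone, was examined further after its values were seen. Within 250 kb of it on chromosome 4, 33 other models were tested. In dgk1 against WT 1 was called (3.03%), in OE2 against WT 6 (18.2%, 5 of them higher) and in OE2 against dgk1 7 (21.2%). On chromosome 4 as a whole the called shares were 1.43%, 6.02% and 5.82%. The models called in OE2 against WT include a noncoding model of 103 bases inside the span of model 23738, and noncoding models of 66 and 70 bases that rest on 12 and 3 fragments over the OE2 libraries. No test of this count was made.

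The deviations of each library from its group mean were also compared with those of OS06G0210000. The pentatricopeptide repeat gene OS02G0118000, of a family that processes organelle RNA, had the highest r of deviations from the group means, 0.99. It had 5.58, 5.16 and 5.87 FPKM in WT, 6.03, 5.67 and 5.73 FPKM in dgk1, and 6.57, 6.02 and 7.08 FPKM in OE2. Next were the RNA-binding model 8753 with 0.93, the GDSL lipase OS12G0566700 and the auxin-induced OS06G0714300 with 0.92 each, and the pentatricopeptide repeat model 24600 with 0.91. They were picked from 4185 models, so high values of r over 9 libraries are a description only.

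Of the 19 tested green-tissue models, 1 was called in OE2 against dgk1, where 6.36% of all tested models were called. Of the 3 tested root models, 1 was called in OE2 against WT and against dgk1. The chlorophyll a-b binding protein gene OS09G0346500 had 102, 130 and 123 FPKM in WT, 76.1, 87.6 and 66.2 FPKM in dgk1, and 209, 138 and 142 FPKM in OE2, with OE2 above dgk1 by 1.06 on the log2 scale (limma adjusted p = 0.00859). Against WT neither OE2 at 0.44 (0.221) nor dgk1 at -0.63 (0.247) was called. OS04G0480200, a partner protein of high-affinity nitrate transporters, had 2.31, 1.91 and 1.81 FPKM in WT, 2.94, 1.48 and 2.03 FPKM in dgk1, and 6.06, 9.69 and 7.41 FPKM in OE2. Its difference from WT in OE2 was 1.52 (limma adjusted p = 0.00263).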
